A study of Mus musculus with 37 samples.

Results

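Ribosomes are made in the nucleolus, and 41 mouse genes of this program were followed through 3 experiments on the supply of nucleotides in the injured heart. The genes were listed by name with earlier results of these data known, no measured value entered the rule, and they are 41 of the 30892 genes in the count table of the fibroblasts. They fall into 6 roles, with 5 nucleolar chaperones and organizers, 4 genes of the box C/D particle and nucleolar methylation, 4 genes of the H/ACA particle, 9 genes of RNA polymerase I and its factors, 11 genes of the small subunit processome and 40S assembly, and 8 genes of 60S assembly. The question was whether the media and the knockout of this study moved the transcripts of the nucleolar program.

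In the first experiment, wild-type C57BL/6 mouse cardiac fibroblasts (CFs) immortalized with the SV40 antigen were moved from serum to serum-free medium and then given medium conditioned by neonatal rat ventricular myocytes (NRVMs). The myocytes had received vehicle, recombinant ENPP1 (an ectonucleotidase that hydrolyzes ATP to AMP), ATP, ENPP1+ATP or AMP, and the CFs were collected after 24 h or 48 h, with 2 libraries for each of the 5 media at each time. In the second experiment, wild-type Sprague-Dawley NRVMs labelled with the same 5 media were collected after 24 h, with 3 libraries per medium. In the third experiment, nonmyocytes of injured C57BL/6 hearts were sequenced as single cells at 7 days after infarction, in 1 library of ENPP1CKO animals and 1 control library labelled wild type. ENPP1CKO animals carry floxed ENPP1 alleles and a tamoxifen-dependent Cre driven by Col1a2, so the deletion is limited to Col1a2-expressing cells. The number of hearts behind each library is not given in the sources used here. The study calls its replicates biological and the labels do not say whether those of a medium came from separate cultures, so p-values measure the spread between these libraries.

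RNA polymerase I copies the ribosomal DNA into a long precursor RNA, with UBF (Ubtf), the SL1 complex (Taf1d is a subunit) and TIF-IA (Rrn3) as its initiation factors. Box C/D particles guide 2'-O-methylation by fibrillarin (Fbl), H/ACA particles guide pseudouridylation by dyskerin (Dkc1), and the small subunit processome and the 60S assembly factors fold and cut the precursor into the parts of both subunits. The program is a well-known target of Myc, and a disturbed nucleolus is known to release the ribosomal proteins Rpl5 and Rpl11, which bind Mdm2, the ubiquitin ligase that degrades p53. Ribosomal RNA itself was not analysed here.

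The 41 genes lie on 18 chromosomes of the mouse genome (GENCODE annotation of GRCm38), with 8 of them alone on their chromosome. Inside 8 of the genes lie 29 small nucleolar RNA genes, 8 of them in Taf1d and 5 in Nop56. Exons of 18 of the genes overlap a gene on the opposite strand, over 32.3% of the exon bases in Tsr1 (with Srr) and 20.9% in Noc2l (with Samd11). Whether reads were counted by strand is not given in the sources used here, so reads of such pairs cannot be told apart. RefSeq promoter sequences (GRCm38.p6) were matched for 34 of the 41 genes, and the 250 bases upstream of the start site were searched on both strands for CACGTG, the E-box that Myc and its partner Max are known to bind, and for CCGGAAG, a binding sequence of ETS factors. No E-box match overlapped an ETS match in these genes. The E-box was found in 2 of the 34 promoters (5.88%), in 6.86% of 27025 promoters of all genes and in 9.48% of the 11493 promoters of genes tested in CFs. The ETS sequence was found in 7 of the 34 (20.6%), in 7.83% of all promoters and in 14.4% of those of genes tested in CFs. Among 93 promoters of other ribosome biogenesis genes, a list described below, 11 held the E-box (11.8%) and 31 the ETS sequence (33.3%). The windows below are shown because they belong to genes that moved in different directions, Nop2 and Gar1 (lower in CFs at 24 h), Rrn3 (higher in CFs) and Polr1c (lower in CFs and higher in NRVMs at 24 h, with ENPP1+ATP or AMP medium). Capitals mark the motif or its reverse complement, and each window is read 5' to 3' on the strand of the gene.
Nop2, E-box, 60 bases before the start, chr6:125131811-125131840 (+): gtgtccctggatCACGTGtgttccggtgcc
Rrn3, E-box, 215 bases before the start, chr16:13780472-13780501 (+): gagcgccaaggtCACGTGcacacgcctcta
Rrn3, E-box, 48 bases before the start, chr16:13780639-13780668 (+): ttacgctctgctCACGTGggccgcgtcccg
Gar1, ETS sequence, 43 bases before the start, chr3:129831422-129831451 (-): cgcgccgccacaCTTCCGGaaacgtcgcgt
Polr1c, ETS sequence, 42 bases before the start, chr17:46248070-46248099 (-): cccacttgacgtCCGGAAGtgaaggacgtg
A match is a stretch of letters in the window and no measurement of binding.

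Total counts per library ranged from 32184799 to 115824659 in CFs, where the largest belonged to 24 h vehicle replicate 1, and from 13481389 to 16977980 in NRVMs. All 41 genes passed the filter on low counts in CFs (17879 genes tested). In NRVMs 39 were tested among 13461 genes, since Heatr1 had no row in the table used here and Nhp2 was below the filter. Of 12 fibroblast markers 11 passed the filter in CFs, and Thy1 was at 0 in 5 of the 20 CF libraries and at most 0.0945 CPM (counts scaled to a common library size) in the rest. Their summed CPM at 24 h was 15210 to 15520 in vehicle, 8448 to 8597 in ENPP1+ATP and 7184 to 7865 in AMP, and at 48 h it was 15060 to 15460, 10050 to 10590 and 10940 to 11000. With ATP medium it was 11750 to 12020 at 24 h and 14120 to 14300 at 48 h. The 10 cardiomyocyte markers summed to 14.3 to 26.3 CPM in CFs. Endothelial, smooth muscle and immune markers (8 of 10 tested) summed to 11.6 to 13.6 CPM in vehicle, to 26.2 to 31.2 CPM in ENPP1+ATP and 46.2 to 49.8 CPM in AMP at 24 h, and to 58.4 to 74.2 CPM in these media at 48 h. Among them Cd68 ranged from 1.88 to 62.7 CPM over the CF libraries, and Ptprc was at 0 in 7 libraries and at most 0.0873 CPM. In NRVMs the cardiomyocyte markers (9 of 10 tested) summed to 42880 to 45310 CPM in vehicle, 40720 to 43530 in AMP, 34650 to 36410 in ENPP1+ATP and 22780 to 24560 in ATP. Fibroblast markers (11 of 12) were also high in NRVMs, at 32880 to 34480 CPM in vehicle and 12390 to 17420 CPM in these 3 media, and the third list (8 of 10) was at 67.1 to 149 CPM. These marker sums moved with the media, and their part in the results below was not tested. In such bulk libraries fewer cells of a type and less RNA per cell cannot be told apart, and every level below is a share of a library's counts, given as CPM with TMM factors.

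Most of the 41 genes fell in CFs given ENPP1+ATP medium for 24 h. Of the 41 genes, 30 were lower than with vehicle medium and 3 were higher (edgeR's quasi-likelihood test, Benjamini-Hochberg adjusted p under 0.05), where 25.3% of all genes tested were lower and 23.9% were higher. The median log2 fold change of the 41 genes was -0.36, beside 0.00 over all genes tested, and 8 of them fell by more than 1.5-fold with an adjusted p under 0.05, as did 10.7% of all genes. AMP medium gave 28 lower and 5 higher, where 27.5% of all genes were lower and 25.3% higher, with a median of -0.26. The heatmap of fold changes shows all media side by side.

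**Figure D1:**
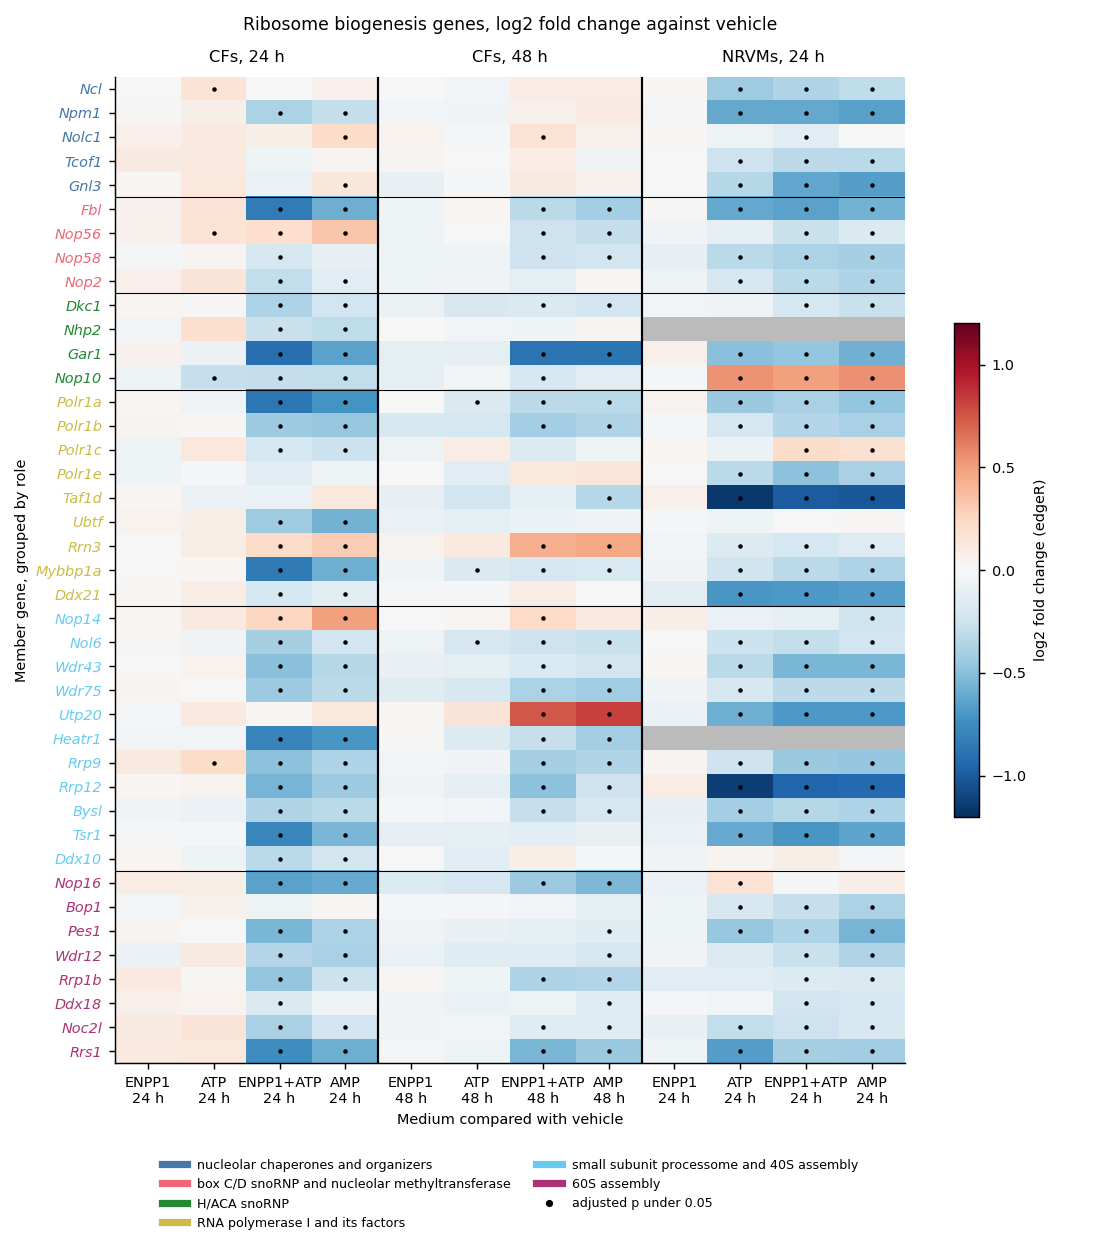
Log2 fold change against vehicle of each of the 41 genes (rows, grouped by role) for each medium and time in CFs and NRVMs (columns), with a dot where the adjusted p was under 0.05 and grey where a gene was not tested in NRVMs. The ENPP1+ATP and AMP columns hold mostly blue (lower) cells with dots in CFs at 24 h and in NRVMs, fewer in CFs at 48 h, and the ENPP1 columns hold no dot.

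Among the chaperones and organizers, 1 of 5 genes was lower and none was higher with ENPP1+ATP at 24 h (median -0.05). Npm1, nucleophosmin, a histone and ribosome chaperone, was measured at 499.9 and 545 CPM in the vehicle libraries, 391 and 413 CPM with ENPP1+ATP and 429 and 427 CPM with AMP. Both treated groups lay below both vehicle libraries, and the log2 fold change with ENPP1+ATP was -0.38, SE 0.0487, adjusted p = 4.48e-07. Ncl, nucleolin, a major RNA-binding protein of the nucleolus, stood at 556 and 596 CPM in vehicle and 565 and 587 CPM in ENPP1+ATP libraries, which overlapped (log2 fold change -0.001125, SE 0.0472, adjusted p = 0.988). With AMP, Nolc1, the chaperone of small nucleolar particles, rose from 163 and 161 to 193 and 184 CPM (log2 fold change 0.22, adjusted p = 0.000185), and Gnl3, the GTPase nucleostemin, from 85.9 and 91.2 to 98.5 and 95.5 CPM (log2 fold change 0.13, adjusted p = 0.0462). Both rose, with no overlap with vehicle, while Npm1 fell in the same libraries.

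In the box C/D group 3 of 4 genes were lower and 1 was higher with ENPP1+ATP (median -0.25). Fbl, the methyltransferase of the particle, was at 69.3 and 75.6 CPM in vehicle, 41.0 and 39.9 CPM in ENPP1+ATP and 46.8 and 49.2 CPM in AMP libraries. No treated library reached the vehicle range, and Fbl fell with a log2 fold change of -0.84, SE 0.0564, adjusted p = 6.81e-12 with ENPP1+ATP and -0.59, SE 0.0552, adjusted p = 1.96e-09 with AMP. Its scaffold partners in the particle, Nop56 and Nop58, did not move together. Nop58 was at 101 and 108 CPM in vehicle and 86.6 and 95.8 CPM in ENPP1+ATP (log2 fold change -0.20, SE 0.0541, adjusted p = 0.00366). Nop56 went the other way, from 129 and 135 CPM in vehicle to 153 and 150.3 CPM in ENPP1+ATP (log2 fold change 0.20, SE 0.0482, adjusted p = 0.00105) and 173 and 160.3 CPM in AMP (log2 fold change 0.33, SE 0.0479, adjusted p = 1.94e-06). Nop2, a methyltransferase of large subunit ribosomal RNA, was lower in both media (log2 fold change -0.30 and -0.13), the latter with an adjusted p of 0.0342.

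All 4 H/ACA genes were lower in both media at 24 h (median -0.33 with ENPP1+ATP and -0.30 with AMP). Gar1, a small protein of the particle, had the largest fall of the 41 genes with ENPP1+ATP, from 24.1 and 26.3 CPM in vehicle to 12.3 and 14.4 CPM (log2 fold change -0.91, SE 0.103, adjusted p = 5.74e-08), and was at 18.3 and 14.0 CPM with AMP (log2 fold change -0.65, adjusted p = 5.7e-06). Its levels in ENPP1+ATP and AMP libraries overlapped, and neither overlapped with vehicle. Nhp2, which binds the guide RNA, moved least in the group, from 42.6 and 44.5 to 35.0 and 37.3 CPM with ENPP1+ATP (log2 fold change -0.27, SE 0.0728, adjusted p = 0.0036). Dkc1, the pseudouridine synthase, and Nop10, its small partner, fell with log2 fold changes of -0.37 and -0.29.

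Of the 9 genes of RNA polymerase I and its factors 6 were lower and 1 was higher, in both media (median -0.21 with ENPP1+ATP and -0.26 with AMP). Polr1a, the largest subunit of the enzyme, was at 138 and 144 CPM in vehicle, 75.3 and 79.0 CPM in ENPP1+ATP and 82.7 and 88.6 CPM in AMP libraries. The treated libraries were well below vehicle, with log2 fold changes of -0.87, SE 0.0504, adjusted p = 4.83e-13 in ENPP1+ATP and -0.72, SE 0.0497, adjusted p = 8.25e-12 in AMP. Polr1b, its partner in the catalytic core, and Polr1c, a subunit shared with RNA polymerase III, fell with log2 fold changes of -0.44 and -0.21, and Ubtf fell with log2 fold changes of -0.42 with ENPP1+ATP and -0.56 with AMP. Mybbp1a, a nucleolar partner of Myb and p53, was at 266 and 279 CPM in vehicle and 147 and 156 CPM in ENPP1+ATP (log2 fold change -0.85, SE 0.0502, adjusted p = 7.44e-13). Rrn3, the factor that makes the polymerase competent to initiate, rose from 112 and 113 CPM to 131 and 131 CPM (log2 fold change 0.22, SE 0.05, adjusted p = 0.000586) and, with AMP, to 133 and 143 CPM (log2 fold change 0.30, SE 0.0497, adjusted p = 1.31e-05). Taf1d was at 34.5 and 40.9 CPM in vehicle and 33.7 and 37.3 CPM in ENPP1+ATP, within the spread of its replicates (log2 fold change -0.08, adjusted p = 0.525), and Polr1e did not pass the test either (log2 fold change -0.12, adjusted p = 0.322).

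The small subunit group had 9 lower and 1 higher of 11 genes in both media (median -0.44 with ENPP1+ATP and -0.32 with AMP). Heatr1, a large scaffold of the processome, was at 80.0 and 84.5 CPM in vehicle, 47.8 and 47.0 CPM in ENPP1+ATP and 46.7 and 54.5 CPM in AMP (log2 fold change -0.79, SE 0.0667, adjusted p = 3.74e-10 in ENPP1+ATP). Tsr1, a late 40S assembly factor whose exons overlap Srr, fell with log2 fold changes of -0.78 and -0.55. Nop14 rose, from 94.6 and 99.0 CPM in vehicle to 116 and 114 CPM in ENPP1+ATP (log2 fold change 0.25, SE 0.0569, adjusted p = 0.000675) and 145 and 128 CPM in AMP (log2 fold change 0.50, SE 0.0565, adjusted p = 5.46e-08). Nop14 was thus higher in every treated library than in vehicle, while 9 of its group were lower. Utp20 was at 129 and 137 CPM in vehicle and 135 and 135 CPM in ENPP1+ATP (log2 fold change 0.03, SE 0.0556, adjusted p = 0.726), a difference inside the vehicle spread.

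In the 60S group 7 of 8 genes were lower with ENPP1+ATP (median -0.43) and 6 with AMP (median -0.32), and none was higher. Rrs1, which helps to bring the 5S particle into the precursor, fell from 59.4 and 58.8 CPM to 33.6 and 36.8 CPM with ENPP1+ATP (log2 fold change -0.75, SE 0.0623, adjusted p = 3.27e-10) and 37.4 and 41.3 CPM with AMP. The PeBoW complex, made of Pes1, Bop1 and Wdr12, did not move as a unit. Pes1 and Wdr12 fell with log2 fold changes of -0.55 and -0.35, and Bop1 stood at 109 and 109 CPM in vehicle and 103 and 106 CPM in ENPP1+ATP (log2 fold change -0.06, SE 0.0533, adjusted p = 0.365).

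**Figure D2:**
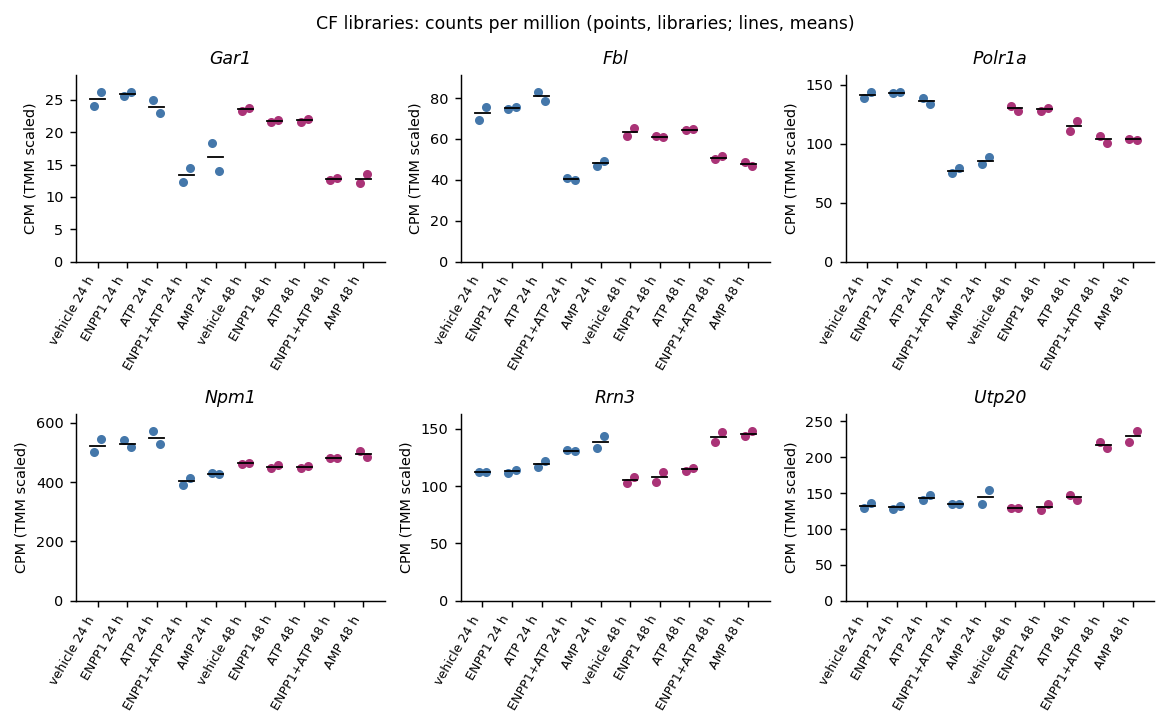
CPM (TMM scaled) of 6 genes in each CF library (points, 24 h in blue and 48 h in purple, lines at group means, axes from 0). Gar1, Fbl and Polr1a are below vehicle in ENPP1+ATP and AMP at both times, Npm1 is below vehicle at 24 h, Rrn3 is above vehicle, and Utp20 is above vehicle at 48 h.

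At 48 h fewer genes of the program differed from vehicle. With ENPP1+ATP 20 of the 41 were lower and 4 higher (24.4% and 20.8% of all genes), with a median of -0.15, and with AMP 23 were lower and 2 higher (22.9% and 21.1% of all genes), with a median of -0.15. Over all genes tested these medians were -0.03 in both media. The chaperones held no lower gene in either medium. Nolc1 rose with ENPP1+ATP, from 157 and 161 to 179 and 179.7 CPM (log2 fold change 0.17, SE 0.0449, adjusted p = 0.00255), and Npm1, at 461 and 464 CPM in vehicle and 479.9 and 480.0 CPM in ENPP1+ATP, did not pass the test (log2 fold change 0.05, adjusted p = 0.402).

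Gar1 kept the largest fall of the list at 48 h, from 23.4 and 23.8 CPM in vehicle to 12.7 and 12.9 CPM in ENPP1+ATP (log2 fold change -0.88, SE 0.105, adjusted p = 1.44e-07) and 12.1 and 13.6 CPM in AMP (log2 fold change -0.88, SE 0.104, adjusted p = 1.54e-07). It was the single gene of the 41 that fell by more than 1.5-fold at this time in either medium, where 10.1% of all genes did so with ENPP1+ATP and 9.12% with AMP. Nhp2, of the same particle, was at 36.9 and 40.1 CPM in vehicle and 34.0 and 40.2 CPM in ENPP1+ATP, and these libraries overlapped (log2 fold change -0.05, adjusted p = 0.585). Fbl was at 61.5 and 65.3 CPM in vehicle and 49.9 and 51.5 CPM in ENPP1+ATP (log2 fold change -0.32, SE 0.0562, adjusted p = 3.83e-05), and Nop2 at 91.9 and 93.0 CPM in vehicle and 87.5 and 83.2 CPM in ENPP1+ATP (log2 fold change -0.11, adjusted p = 0.0843). Nop56, higher at 24 h, was lower at 48 h, at 126 and 129 CPM in vehicle, 110.4 and 105 CPM in ENPP1+ATP (log2 fold change -0.24, SE 0.0489, adjusted p = 0.0002) and 108 and 100.3 CPM in AMP (log2 fold change -0.29, SE 0.0488, adjusted p = 2.56e-05).

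Of the 9 polymerase genes 3 were lower with ENPP1+ATP and 4 with AMP, and Rrn3 was higher in both. Rrn3 was at 103 and 108 CPM in vehicle, 138 and 147 CPM in ENPP1+ATP and 143 and 148 CPM in AMP (log2 fold change 0.44, SE 0.0504, adjusted p = 9.64e-08 in ENPP1+ATP), so that every treated library was above vehicle. Polr1a and Polr1b fell with log2 fold changes of -0.32 and -0.40 with ENPP1+ATP, and Ubtf, at 211 and 219 CPM in vehicle and 205 and 204 CPM in ENPP1+ATP, did not pass (log2 fold change -0.07, adjusted p = 0.262). In the small subunit group 7 of 11 genes were lower in both media, and Utp20, a large scaffold of the processome, was the exception in size. It rose from 129 and 129.97 CPM in vehicle to 221 and 213 CPM in ENPP1+ATP (log2 fold change 0.75, SE 0.0556, adjusted p = 4.5e-11) and 221 and 237 CPM in AMP (log2 fold change 0.82, SE 0.0555, adjusted p = 6.83e-12). Nop14 was also higher with ENPP1+ATP, at 91.9 and 91.0 CPM in vehicle and 106 and 108 CPM (log2 fold change 0.23, SE 0.0575, adjusted p = 0.00194), and the helicase Ddx10, at 28.7 and 30.7 CPM in vehicle and 32.7 and 30.0 CPM in ENPP1+ATP, moved least (log2 fold change 0.08, adjusted p = 0.394). In the 60S group 4 of 8 genes were lower with ENPP1+ATP and 7 with AMP. Rrs1 was at 52.8 and 52.2 CPM in vehicle and 37.4 and 34.5 CPM in ENPP1+ATP (log2 fold change -0.55, SE 0.063, adjusted p = 9.52e-08), and Bop1, at 96.9 and 98.9 CPM in vehicle and 95.5 and 96.5 CPM in ENPP1+ATP, did not pass (log2 fold change -0.03, adjusted p = 0.704).

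At each time both media were compared with the same vehicle libraries, so the counts for ENPP1+ATP and AMP are not independent of each other. The change of the effect between 24 h and 48 h was tested as its own term. For ENPP1+ATP the effect was higher at 48 h in 14 of the 41 genes and lower in 1 (15.1% and 14.9% of all genes), with a median difference of 0.19. For AMP it was higher in 9 and lower in 4 (17.3% and 14.4% of all genes), with a median of 0.12, and with total-count scaling lower in 10 (23% of all genes). Of the genes lower at 24 h with ENPP1+ATP, Mybbp1a and Tsr1 had the largest differences (0.65 and 0.65, adjusted p = 1.47e-07 and 1.16e-05). At 24 h and 48 h Mybbp1a averaged 151 and 195 CPM with ENPP1+ATP, beside 273 and 224 CPM in vehicle. Tsr1 averaged 37.7 and 47.2 CPM, beside 64.8 and 51.8 CPM in vehicle. Utp20 went from no detected change to a rise (difference 0.72, SE 0.0785, adjusted p = 1.45e-07). Nop56 went down with time in both media (difference -0.45, SE 0.0686, adjusted p = 1.75e-05 with ENPP1+ATP and -0.62, SE 0.0684, adjusted p = 1.22e-07 with AMP), and Gar1 did not pass with ENPP1+ATP (difference 0.03, SE 0.147, adjusted p = 0.923). Scaling by total counts in place of TMM moved the median of all genes in the ENPP1+ATP difference from -0.01 to -0.14 and that of the 41 genes from 0.19 to 0.06, and in the AMP difference from 0.01 to -0.14 and from 0.12 to -0.02. The median of the 41 genes in the AMP difference thus changed sign with the scaling, and the median of all genes moved down in the same step.

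**Figure D3:**
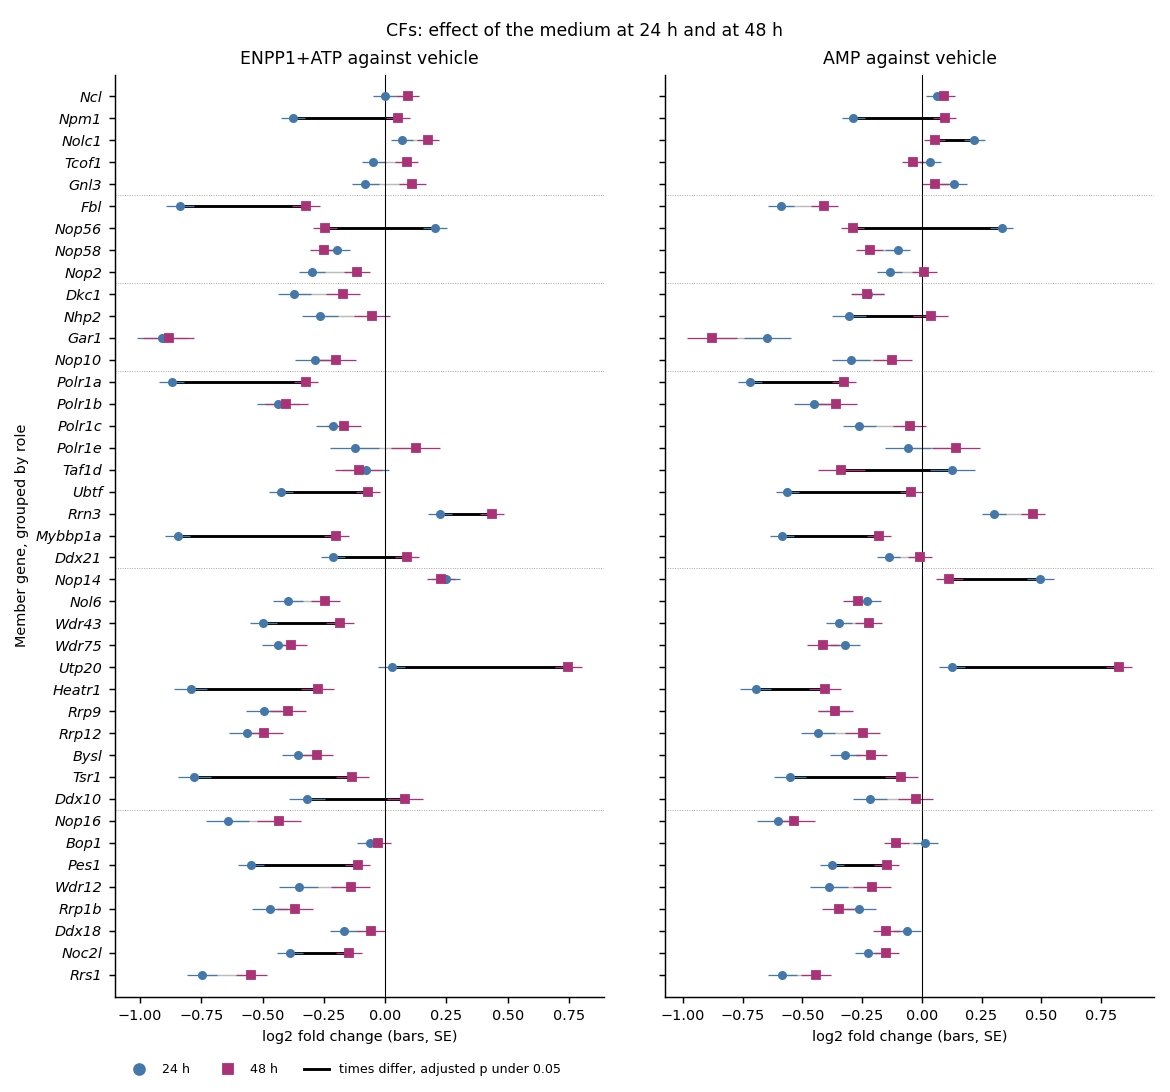
Log2 fold change against vehicle (x axis, bars are SE) of each of the 41 genes at 24 h (circles) and 48 h (squares) for ENPP1+ATP (left) and AMP (right) medium in CFs, joined in black where the times differed at an adjusted p under 0.05. Most joined pairs move right from 24 h to 48 h, Utp20 moves furthest to the right, away from 0, and Nop56 moves left.

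The vehicle libraries themselves changed with time. At 48 h 10 of the 41 genes were lower than at 24 h and none was higher (3.2% and 1.68% of all genes, edgeR, with 23 of the 41 and 16% of all genes at an unadjusted p under 0.05, and 10 lower and 0 higher with DESeq2), with a median of -0.14. Wdr43, a processome subunit, fell with a log2 fold change of -0.37, SE 0.0546, adjusted p = 0.000154, and Mybbp1a (log2 fold change -0.28), Ddx21 (log2 fold change -0.24) and Ncl (log2 fold change -0.23) fell as well. Single libraries changed this count, to 2 lower genes without 24 h vehicle replicate 2 and 3 without either 48 h vehicle replicate, and it was 5 with total-count scaling and 20 with these groups fitted alone (2.01% and 8.78% of all genes).

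With ENPP1 medium without ATP no gene of the program passed the test. At 24 h 0 of the 41 genes and 0 of all 17879 genes passed the test (0% of all genes in either direction, 1 of the 41 and 249 of all genes at an unadjusted p under 0.05, edgeR), and at 48 h again 0 and 0 (2 of the 41 and 743 of all genes at an unadjusted p under 0.05), and DESeq2 called 0 of the 41 at both times. With ATP medium few passed. At 24 h 3 genes were higher (Ncl, Nop56 and Rrp9) and Nop10 was lower (4.77% and 6.32% of all genes), with a median of 0.06. Ncl was at 556 and 596 CPM in vehicle and 667 and 627 CPM with ATP (log2 fold change 0.17, SE 0.0472, adjusted p = 0.0204), and Nop10 at 30.6 and 30.7 CPM in vehicle and 26.7 and 23.9 CPM with ATP (log2 fold change -0.27, SE 0.081, adjusted p = 0.0277). Without ATP replicate 1, or without vehicle replicate 1, 0 genes were higher, and without ATP replicate 2 or either vehicle replicate 0 were lower. With every library kept, 9 genes were higher with DESeq2, 9 with total-count scaling, 6 with the compared groups fitted alone and 1 without a filter (7.61%, 6.04%, 8.04% and 2.85% of all genes), and 1 was lower in each. At 48 h 0 genes were higher and Polr1a, Mybbp1a and Nol6 were lower with ATP (5.35% and 2.48% of all genes, 12 of the 41 and 17.9% of all genes at an unadjusted p under 0.05 in edgeR, 0 higher and 3 lower with DESeq2), with log2 fold changes of -0.18, -0.17 and -0.20, and 0 were lower without ATP replicate 1 or without either vehicle replicate. With total-count scaling 5 were lower and with the compared groups fitted alone 7 (3.92% and 6.15% of all genes).

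Set directly against ATP medium, ENPP1+ATP medium at 24 h gave 32 lower genes and 1 higher gene, Rrn3 (22.1% and 21.8% of all genes), with a median of -0.43 and 10 lower genes past 1.5-fold (7.82% of all genes). Fbl fell with a log2 fold change of -0.9993, SE 0.0568, adjusted p = 1.43e-12, from 83.2 and 78.5 CPM with ATP to 41.0 and 39.9 CPM. At 48 h 13 genes were lower and 7 higher (21.3% and 18.2% of all genes), with a median of -0.03, and Gar1 fell with a log2 fold change of -0.77, SE 0.106, adjusted p = 1.8e-06. The higher genes at 48 h were 4 with total-count scaling, without a filter and with the compared groups fitted alone (16.3%, 9.49% and 17.6% of all genes). Without ATP replicate 1 they were 3, without ATP replicate 2 the lower genes were 8, and at 24 h no gene was higher when any 1 of the 4 libraries was left out.

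AMP and ENPP1+ATP media differed from each other in 7 of the 41 genes at 24 h and in 0 at 48 h. The median log2 fold change of AMP against ENPP1+ATP at 24 h was 0.12 over the 41 genes and -0.00089 over all genes tested. At 24 h 7 genes were higher with AMP and 0 lower (2.6% and 3.65% of all genes, 19 of the 41 and 20.9% of all genes at an unadjusted p under 0.05 in edgeR, 10 higher and 0 lower with DESeq2), all by less than 1.5-fold, where 0.571% of all genes were higher by more. Mybbp1a, at 147 and 156 CPM with ENPP1+ATP and 174 and 189 CPM with AMP, differed by a log2 fold change of 0.26, SE 0.0502, adjusted p = 0.00276, Fbl by 0.25, SE 0.0571, adjusted p = 0.00982 and Nop14 by 0.25, SE 0.0567, adjusted p = 0.0102. The higher genes were 0 without ENPP1+ATP replicate 1, 1 without ENPP1+ATP replicate 2 and 4 without AMP replicate 1, and 1 was lower without AMP replicate 2. With the compared groups fitted alone 1 gene was higher (1.27% of all genes). At 48 h 0 of the 41 genes differed in edgeR (0.0895% and 0.0727% of all genes were higher and lower, 5 of the 41 and 13.8% of all genes were at an unadjusted p under 0.05, and DESeq2 called 0), with log2 differences from -0.23 to 0.25.

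In NRVMs most genes of the program were lower with each of the 3 media whose myocytes had received ATP or AMP. With ENPP1+ATP 33 of 39 genes were lower and 2 higher (27.4% and 28.6% of all genes), with AMP 33 and 2 (28% and 29.2%) and with ATP 27 and 2 (29.7% and 30.2%). The medians were -0.33, -0.37 and -0.25, beside 0.01 over all genes in each. With ENPP1+ATP all 5 chaperones and all 4 box C/D genes were lower, as were 2 of 3 H/ACA genes, 7 of 9 polymerase genes, 8 of 10 small subunit genes and 7 of 8 genes of 60S assembly. Total-count scaling moved the median of all genes with ATP from 0.01 to 0.11 and that of the 39 genes from -0.25 to -0.145. The 3 comparisons share their vehicle libraries. ENPP1 medium gave 0 calls among the 39 genes and 0 among 13461 (0% in either direction, 1 of the 39 and 693 of all genes at an unadjusted p under 0.05 in edgeR, 0 of the 39 with DESeq2).

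Taf1d, the SL1 subunit, had the largest fall in NRVMs, from 28.5, 26.8 and 29.9 CPM in vehicle to 14.7, 13.5 and 14.5 CPM in ENPP1+ATP (log2 fold change -0.9987, SE 0.0962, adjusted p = 4.47e-12), 14.9, 14.3 and 12.8 CPM in AMP (log2 fold change -1.02) and 13.6, 10.7 and 14.0 CPM in ATP (log2 fold change -1.15). No treated library came near the vehicle range. Taf1d is also the gene with the most small nucleolar RNA genes inside it in the mouse annotation, and rat coordinates were not used here. Rrp12, which serves export and maturation of the 40S precursor, was at 74.3, 65.4 and 77.7 CPM in vehicle, 35.1, 35.9 and 41.0 CPM in ENPP1+ATP (log2 fold change -0.95, SE 0.0652, adjusted p = 1.28e-16), 36.0, 37.1 and 40.7 CPM in AMP and 33.8, 32.6 and 32.8 CPM in ATP (log2 fold change -1.13, SE 0.0657, adjusted p = 4.31e-19). Taf1d had not passed the test in CFs at 24 h, and Rrp12 had fallen there (log2 fold change -0.56).

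Tsr1 was at 106, 107 and 105 CPM in vehicle, 65.6, 62.3 and 67.5 CPM in ENPP1+ATP (log2 fold change -0.70, SE 0.0537, adjusted p = 4.58e-15) and 66.005, 69.8 and 69.1 CPM in AMP. Ddx21, a helicase of polymerase I transcription and processing, was at 94.7, 92.9 and 89.4 CPM in vehicle, 55.6, 56.6 and 59.1 CPM in ENPP1+ATP (log2 fold change -0.69, SE 0.0512, adjusted p = 1.58e-15) and 55.9, 59.9 and 59.7 CPM in AMP. For both genes neither of these treated groups overlapped with vehicle, while the 2 treated groups overlapped with each other. Utp20, which rose in CFs at 48 h, fell in NRVMs, from 74.1, 65.3 and 66.03 CPM in vehicle to 42.3, 44.9 and 40.3 CPM in ENPP1+ATP (log2 fold change -0.69, SE 0.0652, adjusted p = 2.79e-12) and 42.8, 40.3 and 44.8 CPM in AMP (log2 fold change -0.69, SE 0.0653, adjusted p = 3.42e-12). The table of NRVMs was fitted on its own, so the difference between the 2 cell types was not tested. Gnl3 was at 63.8, 60.6 and 61.2 CPM in vehicle and 37.2, 39.6 and 40.7 CPM in AMP (log2 fold change -0.66, SE 0.0579, adjusted p = 3.07e-13), Fbl at 42.2, 40.6 and 42.3 CPM in vehicle and 26.7, 26.3 and 27.1 CPM in ENPP1+ATP (log2 fold change -0.64, SE 0.0667, adjusted p = 3.61e-11), and Npm1 at 442, 413 and 428 CPM in vehicle and 274, 271 and 294 CPM in ENPP1+ATP (log2 fold change -0.61, SE 0.0407, adjusted p = 5.13e-17). Each of these 3 genes was lower in every treated library than in every vehicle library.

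The genes that went up in NRVMs were few. Nop10 rose from 51.1, 51.7 and 53.3 CPM in vehicle to 76.0, 74.8 and 69.1 CPM in ENPP1+ATP (log2 fold change 0.49, SE 0.0618, adjusted p = 4.34e-09), 76.3, 73.7 and 78.4 CPM in AMP (log2 fold change 0.55) and 74.8, 73.2 and 79.3 CPM in ATP (log2 fold change 0.54), while Gar1 and Dkc1 of the same particle fell with log2 fold changes of -0.47 and -0.21 with ENPP1+ATP. Polr1c rose with ENPP1+ATP and AMP, from 44.1, 43.5 and 43.4 CPM in vehicle to 50.3, 51.8 and 50.6 CPM (log2 fold change 0.22, SE 0.0581, adjusted p = 0.00116) and 51.5, 49.4 and 48.1 CPM (log2 fold change 0.19, SE 0.0583, adjusted p = 0.00561). With ATP it stood at 42.3, 40.7 and 41.7 CPM and did not pass the test (log2 fold change -0.07, adjusted p = 0.307). Nop16, of 60S assembly, rose with ATP, from a mean of 30.8 CPM in vehicle to 34.7 CPM (log2 fold change 0.17, SE 0.0707, adjusted p = 0.0347). It did not pass with ENPP1+ATP or AMP (adjusted p = 0.881 and 0.334). Rrn3, higher in CFs, was lower in NRVMs (log2 fold change -0.21, -0.15 and -0.16 with ENPP1+ATP, AMP and ATP), and Ubtf, at 151, 148 and 159 CPM in vehicle and 157, 151 and 149 CPM in ENPP1+ATP, did not pass (log2 fold change 0.00, adjusted p = 0.994).

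**Figure D4:**
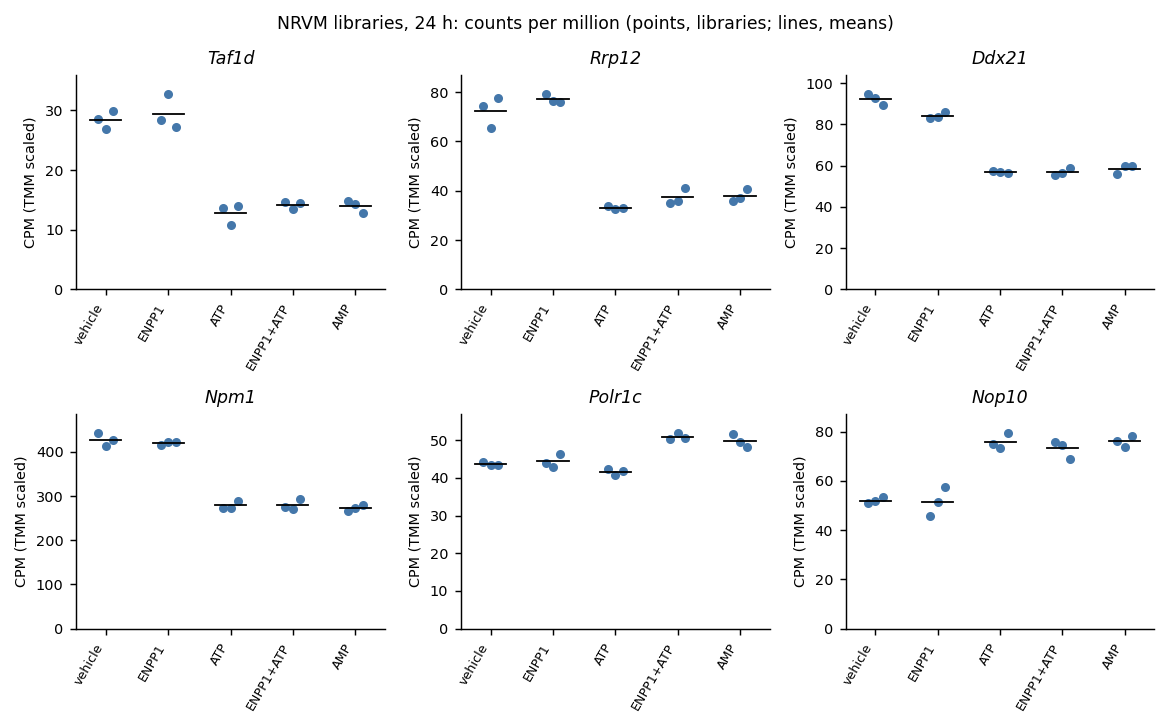
CPM (TMM scaled) of 6 genes in each NRVM library at 24 h (points, lines at group means, axes from 0). Taf1d, Rrp12, Ddx21 and Npm1 are lower in ATP, ENPP1+ATP and AMP than in vehicle or ENPP1, Nop10 is higher in the same 3 media, and Polr1c is higher in ENPP1+ATP and AMP.

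Against ATP medium, ENPP1+ATP medium gave 6 lower and 2 higher genes in NRVMs (13.5% and 14.1% of all genes), with a median of -0.05. Polr1c differed most upwards (log2 fold change 0.29, SE 0.0576, adjusted p = 9.25e-05) and Gnl3 most downwards (log2 fold change -0.28, SE 0.0582, adjusted p = 0.000173). Without ATP replicate 3 the lower genes were 3, with total-count scaling they were 13 (19.4% of all genes), and without ATP replicate 1 the higher gene was 1. AMP against ENPP1+ATP medium gave 1 lower gene, Pes1, and 0 higher (3.85% and 5.81% of all genes, 3 of the 39 and 21.5% of all genes at an unadjusted p under 0.05 in edgeR, 1 higher and 1 lower with DESeq2). Pes1 was at 58.3, 60.1 and 62.2 CPM with ENPP1+ATP and 54.5, 51.9 and 52.2 CPM with AMP (log2 fold change -0.19, SE 0.0562, adjusted p = 0.0227), and it did not pass without either AMP replicate 2 or 3, or without ENPP1+ATP replicate 2 or 3.

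A list of 114 other ribosome biogenesis genes, chosen with results of these data known, was counted in the same comparisons. In CFs at 24 h 55 of 108 tested were lower and 22 higher with ENPP1+ATP (25.3% and 23.9% of all genes, median -0.18) and 50 and 26 with AMP (27.5% and 25.3% of all genes, median -0.14). At 48 h 28 of 108 were lower and 19 higher with ENPP1+ATP, near the 24.4% and 20.8% of all genes (median -0.05), and 37 and 18 with AMP (22.9% and 21.1% of all genes, median -0.08). In NRVMs 39 of 108 were lower and 9 higher with ENPP1+ATP (27.4% and 28.6% of all genes, median -0.13), 50 and 9 with AMP (28% and 29.2%, median -0.16), and 39 and 11 with ATP (29.7% and 30.2%, median -0.11). The list shares no gene with the 41. The lowest in CFs at 24 h with ENPP1+ATP were Ppan, a 60S assembly factor (log2 fold change -0.97, SE 0.0935, adjusted p = 4.29e-09), Shq1, the chaperone that loads dyskerin (log2 fold change -0.94) and Nle1, a 60S factor (log2 fold change -0.83). With AMP they were Shq1 (log2 fold change -0.92), Ppan (log2 fold change -0.78) and Pwp2, of the small subunit processome (log2 fold change -0.71). The highest in both media was Exosc10, a catalytic subunit of the nuclear exosome that trims precursor RNA (log2 fold change 0.70, SE 0.0535, adjusted p = 7.61e-11 with ENPP1+ATP and 0.73 with AMP), and Mak16, a 60S factor, rose at both times (log2 fold change 0.42 at 24 h and 1.07 at 48 h). At 48 h Nle1, Tsr3 and Mrto4 were lowest with ENPP1+ATP (log2 fold change -0.73, -0.67 and -0.62) and Rrp15, Mrto4 and Shq1 with AMP (log2 fold change -0.45, -0.44 and -0.43). Rrp36, of the small subunit processome, rose by 0.77 and Brix1, of 60S assembly, by 0.63, and with AMP by 0.86 and 0.58. In NRVMs with ENPP1+ATP the helicase Ddx31 fell furthest (log2 fold change -0.63, SE 0.124, adjusted p = 2.81e-05), before Mrto4 (log2 fold change -0.59) and Utp18 (log2 fold change -0.55). Taf1b, an SL1 subunit like Taf1d, was the highest there (log2 fold change 0.42) and reached 0.79 with ATP, where Taf1d had fallen. With AMP the lowest were Ddx31, Nol12 and Utp18 (log2 fold change -0.78, -0.78 and -0.74) and the highest Tsr3 (log2 fold change 0.32).

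Some known regulators of the program and of its link to p53 moved in the same libraries, and whether they bear on the 41 genes was not tested. With ENPP1+ATP at 24 h 25.3% of all genes were lower and 23.9% higher in CFs. There Mlx was at 45.3 and 45.7 CPM in vehicle and 45.6 and 44.9 CPM with ENPP1+ATP. Mnt was at 61.5 and 60.2 CPM against 38.5 and 37.8 CPM. Trp53 was at 222 and 213 CPM against 217 and 218 CPM, and at 48 h at 213 and 211 CPM against 275 and 274 CPM. Myc was at 91.4 and 87.4 CPM in vehicle and 47.6 and 52.0 CPM in ENPP1+ATP in CFs at 24 h (log2 fold change -0.85, SE 0.0683, adjusted p = 1.88e-10), fell with a log2 fold change of -0.45 with AMP, and at 48 h fell with log2 fold changes of -0.53 and -0.52. In NRVMs Myc was at 55.3, 54.8 and 60.7 CPM in vehicle, 13.9, 17.4 and 17.8 CPM in ENPP1+ATP (log2 fold change -1.79, SE 0.0808, adjusted p = 9.29e-23) and 23.4, 20.5 and 22.0 CPM in ATP. Mycn, the relative of Myc, fell in CFs at 24 h with ENPP1+ATP (log2 fold change -1.1990) and AMP (log2 fold change -1.65) and rose at 48 h (log2 fold change 0.58 and 1.08). The Myc antagonists of the Mxd family did not follow one course. Mxd1 and Mxd3 rose in CFs at 24 h with ENPP1+ATP (log2 fold change 1.02 and 0.90) and did not pass at 48 h (log2 fold change -0.20 and -0.01, adjusted p = 0.117 and 0.941), while Mxd4 rose at both times (log2 fold change 0.20 at 24 h and 0.47 at 48 h). With AMP Mxd4 did not pass at 24 h (log2 fold change 0.02, adjusted p = 0.805) and rose at 48 h (log2 fold change 0.65). In NRVMs with ENPP1+ATP Mxi1 rose with a log2 fold change of 0.80 and Mxd4 with one of 0.33. Rpl5 and Rpl11 fell in CFs at 24 h with ENPP1+ATP (log2 fold change -0.63 and -0.43) and AMP (log2 fold change -0.59 and -0.28), did not pass at 48 h with either (ENPP1+ATP -0.05 and 0.00, AMP -0.01 and 0.09), and fell in NRVMs (log2 fold change -0.52 and -0.40 with ENPP1+ATP). Mdm2 rose by 1.94 and Cdkn1a, the cell cycle inhibitor that p53 induces, by 1.97 in CFs at 24 h with ENPP1+ATP, by 2.70 and 2.30 at 48 h, and by 1.02 and 1.04 in NRVMs. Cdkn2a, whose Arf product is a nucleolar inhibitor of Mdm2, fell in CFs in both media and at both times (from -0.86 to -0.67).

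With ATP medium at 24 h, where 3 of the 41 genes were higher and 1 lower in CFs (4.77% and 6.32% of all genes), Myc did not pass (log2 fold change -0.16, adjusted p = 0.142), while Mdm2 (log2 fold change 0.76, adjusted p = 4.7e-08) and Cdkn1a (log2 fold change 1.07, adjusted p = 0.000373) rose. At 48 h 3 of the 41 were lower with ATP (2.48% of all genes). Myc was then at 58.7 and 67.9 CPM with ATP and 81.2 and 75.7 CPM in vehicle. Mdm2 was at 329 and 279 CPM against 149 and 160 CPM, and Cdkn1a at 387 and 343 CPM against 138 and 176 CPM. In NRVMs with ATP, where 27 of 39 were lower (29.7% of all genes), Myc fell with a log2 fold change of -1.37 and Mdm2 rose by 1.42.

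In the single-cell libraries the targeted gene was lower in ENPP1CKO, as labelled. Over fibroblast-like cells Enpp1 had 461 counts (28.6 CPM) in ENPP1CKO against 1236 counts (127 CPM) in control, which gives a log2 ratio of -2.14 (95% counting interval -2.30 to -1.99). In macrophage-like cells it had 76 and 117 counts (-0.36, -0.80 to 0.06) and in endothelial-like cells 0 and 0. The libraries held 7460 and 5347 barcodes, 68 of them in both, and after filters and removal of 150 and 73 predicted doublets 7256 and 5236 cells were kept, with a median of 3365.5 and 3701 counts per cell. With 1 library per genotype no test was made, and the intervals cover counting error only. Cell classes were named from markers, with the 41 genes left out of the clustering, and the counts of the 41 genes were summed per class and library.

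Summed over whole classes, the share of counts that the program took differed least between libraries in macrophage-like and most in endothelial-like cells of the 3 largest classes. Genes with many counts weigh most in these sums. Over all cells Npm1 and Ncl held 19719 and 8281 of 61483 counts in ENPP1CKO, and 15665 and 6853 of 50991 in control. Ratios by gene are given further below. In fibroblast-like cells (3663 ENPP1CKO and 1785 control cells) the 41 genes summed to 2317 CPM with the deletion and 2228 CPM without it, which is a log2 ratio of 0.06 (0.03 to 0.08). In macrophage-like cells (2000 and 2420) the sums were 1959 and 1964 CPM, a ratio of -0.0035 (-0.04 to 0.03). These cells lay in 3 clusters that the libraries filled unequally. The summed ratio was -0.0067 (-0.06 to 0.05) in the cluster led by Cd74 and H2-Eb1 (979 and 692 cells), 0.03 (-0.02 to 0.07) in the one led by Gpnmb and Syngr1 (966 and 907 cells) and 0.22 (0.05 to 0.37) in the third (55 and 821 cells). In endothelial-like cells (931 and 191) they were 2575 and 2986 CPM, a ratio of -0.21 (-0.30 to -0.13), where the median depth was 1472 counts in ENPP1CKO and 2597 in control cells. T or NK cell-like cells had the highest sum of the named classes in both libraries, 3858 and 4048 CPM. The summed ratio of the other ribosome biogenesis genes was -0.0056 (-0.03 to 0.02) in fibroblast-like cells. It was -0.08 (-0.11 to -0.06) in macrophage-like and -0.09 (-0.16 to -0.02) in endothelial-like cells.

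By gene, 39 of the 41 reached 50 counts over the fibroblast-like cells. Of these 25 were higher and 14 lower in ENPP1CKO, with a median log2 ratio of 0.07 (0.02 over all genes), and 0 were past 1.5-fold in either direction, where 5.12% of all genes were past it upwards and 5.13% downwards. Nop58 was highest among those with at least 200 counts, with 1317 and 618 counts (81.8 and 63.3 CPM, log2 ratio 0.37, 0.23 to 0.51), followed by Nop14 (0.34, 0.06 to 0.62) and Rrs1 (0.30, 0.07 to 0.54). Fbl was lowest, with 674 and 504 counts (41.9 and 51.6 CPM, -0.30, -0.47 to -0.13), followed by Bop1 (-0.26, -0.54 to 0.04) and Taf1d (-0.23, -0.36 to -0.10). The largest number of ENPP1CKO cells of the class lay in the cluster led by Thbs4 and Cilp (1667 and 225 cells) and most control cells in the one with Ccn5 and Col11a1 (1022 and 1158 cells), where the 41 genes' median ratio was 0.09 and -0.01. In the cluster led by Clec3b and Dpep1 (857 and 312 cells) it was 0.15, over 28 genes. In the one led by Ifit3 (117 and 90 cells) it was 0.13, over 10 genes. A cluster with Wt1, Lgals7 and Clu among its leading genes (26 and 116 cells), with high sums of 3032 and 3916 CPM, was left unnamed, and counting it as fibroblast-like turned the median to -0.07, an alternative chosen after seeing the data.

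In macrophage-like cells 10 of 38 genes were higher and 28 lower, with a median of -0.13 that equalled the -0.13 over all genes. Within the cluster led by Cd74 the median was -0.12 (9 higher and 19 lower, -0.04 over all genes). It was 0.02 in the one led by Gpnmb (18 and 13, -0.03 over all genes) and 0.03 in the third (11 and 8, -0.07 over all genes). Of the 38, 5 were past 1.5-fold downwards and 0 upwards (12.3% and 2.58% of all genes). Noc2l, a 60S factor, was the one of these with at least 200 counts, at 137 and 260 counts (20.0 and 31.8 CPM, -0.67, -0.98 to -0.36), and Tcof1, treacle, a polymerase I cofactor, was highest (0.33, 0.06 to 0.60). Ddx21 and Gnl3 followed Noc2l at the low end (-0.31 and -0.30), and Nop10 and Npm1 followed Tcof1 (0.15 and 0.12). In endothelial-like cells 2 of 22 genes were higher and 20 lower, with a median of -0.20 beside -0.03 over all genes, and 1, Gar1 with 92 and 48 counts (-0.68), was past 1.5-fold downwards and 0 upwards (9.55% and 8.97% of all genes). With a TMM factor 6 were higher and 16 lower, with a median of -0.10 beside 0.08 over all genes. None (0) was then past 1.5-fold in either direction, where 340 of all 5182 genes were past it downwards and 661 upwards. Of the 5 genes with at least 200 counts Taf1d was lowest (-0.55, -0.94 to -0.16), then Nhp2 (-0.30, -0.67 to 0.07), Nop10 (-0.21), Npm1 (-0.20, -0.37 to -0.03) and Ncl (-0.13, -0.36 to 0.10). The class held a cluster led by Fabp4 and Gpihbp1 (866 and 161 cells), where the summed ratio was -0.32 (-0.41 to -0.23), and a cluster led by Ccl21a and Mmrn1 (65 and 30 cells), where it was 0.49 (0.28 to 0.71). For the other ribosome biogenesis genes it was -0.13 (-0.20 to -0.05) and 0.17 (-0.01 to 0.35) in these clusters. Myc intervals included 0 in these classes, with log2 ratios of -0.01 (-0.17 to 0.15) in fibroblast-like, 0.23 (-0.19 to 0.64) in macrophage-like and -0.29 (-0.95 to 0.41) in endothelial-like cells. Cdkn1a was higher in ENPP1CKO in all 3, with log2 ratios of 0.30 (0.23 to 0.38), 0.39 (0.33 to 0.44) and 1.44 (1.13 to 1.76), while Mdm2 was at 0.17 (-0.06 to 0.41), -0.16 (-0.36 to 0.04) and -0.06 (-0.83 to 0.77). Rpl5 and Rpl11 lay between -0.09 and 0.16 in the same classes.

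**Figure D5:**
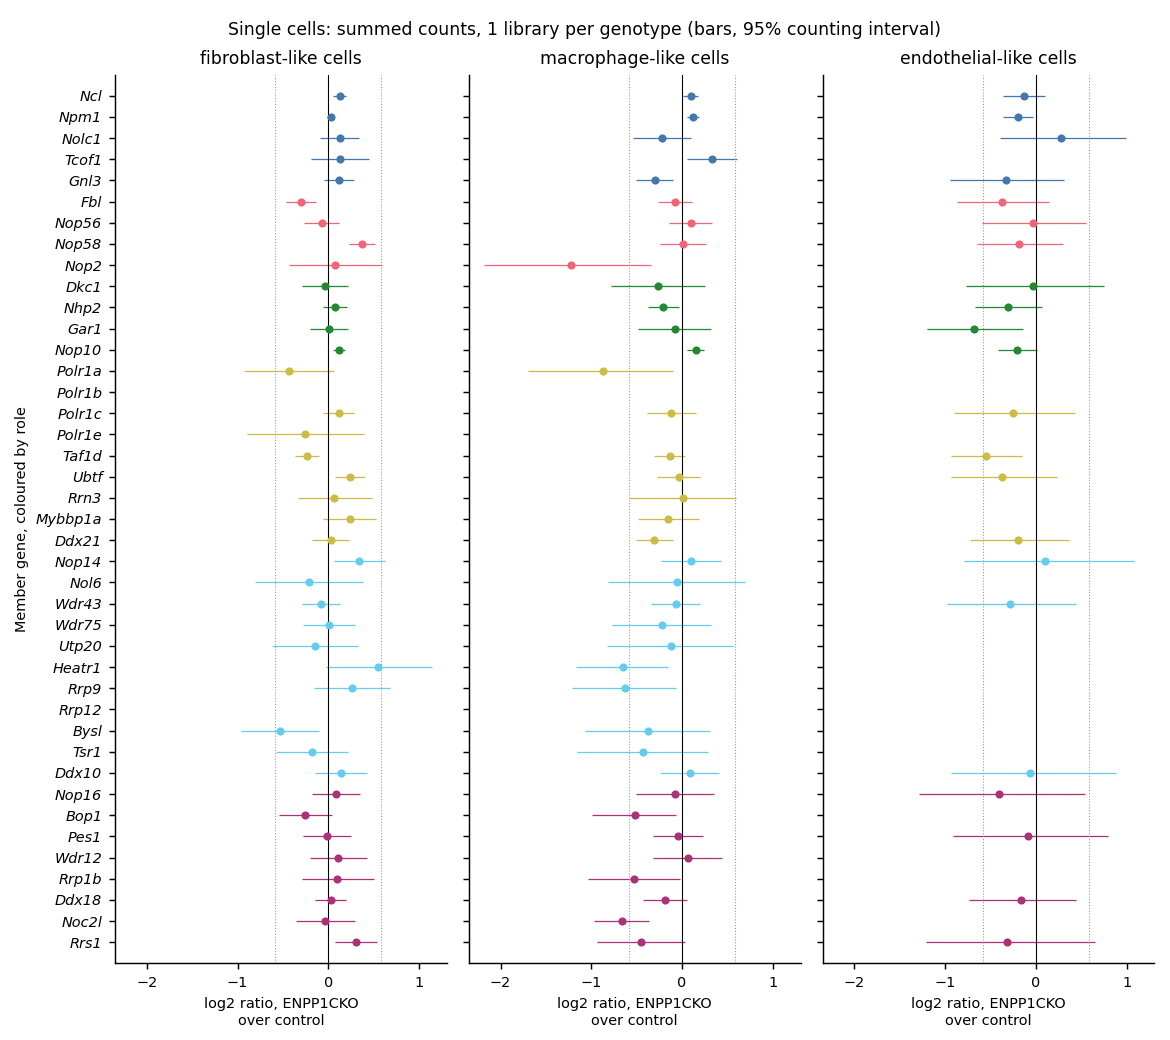
Log2 ratio of summed counts, ENPP1CKO over control (x axis, bars are 95% counting intervals, dotted lines at 1.5-fold), of each gene with at least 50 counts in fibroblast-like, macrophage-like and endothelial-like cells. Fibroblast-like ratios lie within the dotted lines on both sides of 0, and 20 of 22 endothelial-like ratios lie below 0.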

How the data were processed

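RNA sequencing of 20 CF and 15 NRVM libraries and single-cell sequencing of 2 libraries of nonmyocytes were analysed from the count tables that the authors deposited, in which values are whole counts per gene. The submitters' processing notes name STAR 2.5.3a, Cell Ranger, mm10 and rn6. The counting program and its strand setting are not given in the sources used here. The sample records list every sample as mouse, while the NRVM labels name a rat strain. No column of the tables was left unused (0).

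Groups were taken from the sample labels. Genes were filtered with filterByExpr, scaled by TMM and tested in edgeR 4.0.16 (R 4.3.3, limma 3.58.1) by the quasi-likelihood test with 1 fit per table over all groups, Benjamini-Hochberg adjustment over all genes tested and a threshold of 0.05. SE was the size of the log2 fold change divided by the square root of F. The biological coefficient of variation (common dispersion) came to 0.0590 for the CF table and 0.0499 for the NRVM table. The test was checked on simulated counts. CPM was computed with TMM-scaled library sizes. DESeq2 1.42.0, total-count scaling, no filter, a replicate block, fits of the compared groups alone and leaving out each library were tried as alternatives, and adding the cluster with Wt1 among its leading genes to the fibroblast-like cells, the single clusters and the crossed block were added after seeing the data.

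Cells with 200 or more genes and no more than 20% of counts from mitochondrial genes were kept, doublets predicted by Scrublet were removed, and cells were clustered with scanpy 1.11.5 (2000 variable genes without the 41 genes or the other list, 30 components, 15 neighbours, Leiden resolution 0.5). Clusters were named from marker lists. Counts were summed per class, and intervals of ratios are exact conditional binomial intervals (95%) that cover counting error only.

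The 41 genes, the lists and the tests were chosen with earlier results of these data known. Values in every library were given, within each role, for the genes with the largest and the smallest change in CFs with ENPP1+ATP at either time, for genes that passed against the majority of their role, and for up to 6 by size in NRVMs. Nop16 in NRVMs was given as group means. The other list and the regulators were named by up to 3 in each direction, and single-cell genes by the 3 highest and 3 lowest ratios with at least 200 counts. Any other of the 41 genes that is named, and Mxd3, Mxd4, Mlx, Mnt and Trp53, was chosen after its values were seen.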

Additional observations from a re-analysis of the deposited data

Results flagged for a closer look

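The effect of ENPP1+ATP medium on CFs differed between 48 h and 24 h in 15 of the 41 genes, by edgeR's interaction term with an adjusted p under 0.05, as it did in 30% of all genes. The values are log2 fold changes against vehicle at 48 h minus those at 24 h. Among the chaperones the value was 0.43 in Npm1. In the box C/D group it was 0.52 in Fbl and -0.45 in Nop56. Among the polymerase genes it was 0.55 in Polr1a, 0.35 in Ubtf, 0.21 in Rrn3, 0.65 in Mybbp1a and 0.30 in Ddx21. In the small subunit group it was 0.31 in Wdr43, 0.72 in Utp20, 0.52 in Heatr1, 0.65 in Tsr1 and 0.40 in Ddx10. In the 60S group it was 0.44 in Pes1 and 0.24 in Noc2l. In all but Nop56 the effect against vehicle was higher at 48 h, which does not mean a higher level. With ENPP1+ATP, Wdr43 averaged 69.9 CPM at 24 h and 67.1 CPM at 48 h, beside 98.9 and 76.3 CPM in vehicle.

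The effect of AMP medium differed between the times in 13 of the 41 genes by the same test. This count is near the share of all genes, 31.7%, so it does not set the 41 genes apart. The value was 0.38 in Npm1 and -0.17 in Nolc1 among the chaperones, -0.62 in Nop56 and 0.34 in Nhp2 among the snoRNA particle genes, and 0.39 in Polr1a, -0.46 in Taf1d, 0.52 in Ubtf and 0.40 in Mybbp1a among the polymerase genes. It was -0.38 in Nop14, 0.70 in Utp20, 0.29 in Heatr1 and 0.47 in Tsr1 in the small subunit group, and 0.23 in Pes1. Both media share the vehicle libraries, in which 10 of the 41 genes were themselves lower at 48 h, and the part of that shift in these values was not tested.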

How the results depend on the processing

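No gene past the threshold changed direction under any alternative run. The median of the 41 genes in the AMP difference between times went from 0.12 to -0.02 with total-count scaling, where that of all genes went from 0.01 to -0.14. The fall of the 41 genes with ENPP1+ATP and AMP at 24 h and 48 h in CFs, and with all 3 nucleotide media in NRVMs, stayed within 1.5 times its count under each alternative. Of 1644 values of single genes under alternatives that keep every library, 1558 kept their side of the threshold and 86 lost it, and of 1640 with a library left out 1413 kept it and 227 lost it. The cause of the changes below was not tested.

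Percentages here are the shares of all genes called in the same direction under the same alternative. With total-count scaling the genes higher with ATP in CFs at 24 h went from 3 to 9 (6.04%), the gene higher in ENPP1+ATP than ATP from 1 to 2 (24.5%), and at 48 h the genes lower with ATP from 3 to 5 (3.92%) and those higher in ENPP1+ATP than ATP from 7 to 4 (16.3%). It moved the genes lower in 48 h vehicle from 10 to 5 (2.01%), those with a lower AMP effect at 48 h from 4 to 10 (23%), and in NRVMs those lower in ENPP1+ATP than ATP from 6 to 13 (19.4%) and in AMP than ENPP1+ATP from 1 to 2 (7.64%). Without a filter on low counts the genes higher with ATP went from 3 to 1 at 24 h (2.85%), those higher in ENPP1+ATP than ATP to 0 at 24 h (11.1%) and 4 at 48 h (9.49%), those lower with ATP at 48 h to 1 (1.62%), and those higher with ATP in NRVMs to 1 (19.7%). DESeq2 gave 9 higher with ATP at 24 h (7.61%), 4 higher with AMP at 48 h in place of 2 (22.2%), 1 higher with ATP in NRVMs (27.8%) and 1 higher in AMP than ENPP1+ATP in NRVMs (5.88%). Fits of the compared groups alone gave 6 higher with ATP (8.04%) and 2 higher in ENPP1+ATP than ATP (26.4%) at 24 h, 1 higher in AMP than ENPP1+ATP in place of 7 (1.27%), 2 higher and 7 lower with ATP (9.83% and 6.15%) and 4 higher in ENPP1+ATP than ATP (17.6%) at 48 h, and 20 lower in 48 h vehicle (8.78%).

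Correlations of same-numbered deviations ran from -0.136 to 0.132. With 2 libraries per CF group both replicates of a comparison give the same value. These correlations therefore cannot tell whether the replicate numbers pair the libraries. A replicate block gave 5 genes higher with ATP at 24 h (5.46%), 1 higher with ATP at 48 h (5.95%), 5 lower in 48 h vehicle (3%) and 1 higher in AMP than ENPP1+ATP in NRVMs (6.13%). Crossing the numbers, an alternative added after seeing the data for ATP against vehicle at 24 h (correlation -0.106), gave 5 higher (5.15%) and 1 lower.

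Leaving out 1 library gave, in CFs at 24 h, 3 higher and 26 to 29 lower with ENPP1+ATP, 4 to 5 and 24 to 28 with AMP, 0 to 2 and 0 to 1 with ATP, 0 and 29 to 33 in ENPP1+ATP against ATP, and 0 to 5 and 0 to 1 in AMP against ENPP1+ATP. At 48 h it gave 4 to 5 and 16 to 18 with ENPP1+ATP, 2 and 16 to 20 with AMP, 0 and 0 to 2 with ATP, and 3 to 7 and 8 to 12 in ENPP1+ATP against ATP. It gave 2 to 8 lower in 48 h vehicle, 12 to 15 higher and 1 lower ENPP1+ATP effects at 48 h, and 6 to 11 and 2 to 5 for AMP, with 2 lower without 24 h AMP replicate 1 or 24 h vehicle replicate 1. In NRVMs it gave 2 and 31 to 33 with ENPP1+ATP, 2 and 30 to 33 with AMP, 1 to 2 and 23 to 27 with ATP (1 without ATP replicate 3 or vehicle replicate 1 or 2), 1 to 3 and 3 to 6 in ENPP1+ATP against ATP, and 0 and 0 to 1 in AMP against ENPP1+ATP. Shares of all genes called with the same library left out are not given here. A lower count can therefore reflect fewer calls over all genes, and these counts alone do not set the listed genes apart.

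In single cells the median log2 ratio in fibroblast-like cells went from 0.07 to 0.12 with every cell thinned to 1000 counts, to 0.10 with predicted doublets kept and to -0.0746 with the cluster with Wt1 among its leading genes counted in (an alternative added after seeing the data). In macrophage-like cells it went from -0.13 to -0.0642 when thinned, -0.0263 with a TMM factor and -0.0728 at 200 counts or more, and in endothelial-like cells from -0.20 to -0.29 when thinned and -0.10 with a TMM factor. Over all genes the macrophage-like median went from -0.13 to -0.142, -0.0247 and -0.0988 in the same order. The endothelial-like median over all genes went from -0.03 to -0.00879 when thinned and 0.0759 with a TMM factor. Thinning left out 110 and 44 fibroblast-like, 61 and 194 macrophage-like and 241 and 16 endothelial-like cells of the ENPP1CKO and control libraries.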
